A study of Mus musculus with 30 samples.

Results

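Mitochondrial ribosomal proteins are the protein subunits of the mitochondrial ribosome, and the genes examined here are all those whose symbol is Mrpl or Mrps followed by a number and at most 1 letter. Of the 26264 gene symbols in the count tables, 78 met that rule, 51 of them encoding proteins of the large subunit, 26 proteins of the small subunit, and 1, Mrps36, a protein that current nomenclature no longer counts as ribosomal. Mrps18a and Mrps30 were counted with the large subunit, where their proteins sit despite their names. All 78 had enough counts to be tested.

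RNA was measured by sequencing in the tibialis anterior, the muscle along the front of the shin, of male and female mice. Muscles were either uninjured, which served as controls, or collected 4, 7, 11 or 15 days after volumetric muscle loss, the surgical removal of a piece of muscle. There were 10 groups of sex and time with 3 libraries each, 30 in all, so that each time point held 6 libraries. The labels used here name neither strain nor age, no treatment other than the injury is named, and the labels do not say whether the libraries came from separate animals or how many animals were pooled, so a p-value speaks only of how far these 30 libraries spread.

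The mitochondrial ribosome translates the few messenger RNAs that mitochondrial DNA encodes, all of them for core subunits of the respiratory chain and ATP synthase. Its own proteins are made from nuclear genes, translated in the cytosol and imported. Many have a counterpart in the bacterial ribosome, whereas others occur only in mitochondria, and skeletal muscle fibres are rich in the organelle and in the respiratory complexes it builds.

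The starts of these genes were examined for short motifs known from nuclear genes of mitochondrial proteins. Windows from 250 bases before to 50 after the start were taken from RefSeq (GRCm38.p6) and matched 69 of the 78 symbols. The ETS-type motif CCGGAAG, searched on both strands as were all motifs, occurred in 26 of the 69 windows (37.7%), against 16.7% of the 13373 tested genes with a window and 8.86% of all 32851 windows. The YY1 motif AAGATGGC occurred in 12 (17.4%), against 4.42% of tested genes and 2.75% of all windows, and the NRF1 motif, GCGCA followed at once by its reverse complement, in 3 (4.35%), against 1.91% and 0.971%. 37 windows (53.6%) held at least 1 of them, against 21.6% for tested genes.

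The 100 bases before the start of 5 members are shown because each holds an exact match to a motif that was commoner in the members' windows than in those of tested genes. The sequences are from GRCm38.p6, read 5′ to 3′ on the strand of the gene, with the match in capitals. Mrpl9 (chr3:94443236-94443335, plus strand) and Mrpl32 (chr13:14613038-14613137, minus strand) carry the NRF1 motif, and Mrps27 (chr13:99344686-99344785, plus strand), Mrpl58 (chr11:115403652-115403751, plus strand) and Mrps18a (chr17:46110904-46111003, plus strand) the ETS motif, in Mrps27 as its reverse complement.
Mrpl9: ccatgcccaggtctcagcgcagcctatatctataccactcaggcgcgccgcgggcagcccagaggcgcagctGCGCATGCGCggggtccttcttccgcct
Mrpl32: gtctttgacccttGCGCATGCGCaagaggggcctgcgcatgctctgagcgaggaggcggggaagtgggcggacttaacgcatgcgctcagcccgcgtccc
Mrps27: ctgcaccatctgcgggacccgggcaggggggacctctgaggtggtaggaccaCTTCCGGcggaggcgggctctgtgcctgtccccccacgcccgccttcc
Mrpl58: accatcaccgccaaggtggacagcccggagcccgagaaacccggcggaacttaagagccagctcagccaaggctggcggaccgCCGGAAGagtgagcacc
Mrps18a: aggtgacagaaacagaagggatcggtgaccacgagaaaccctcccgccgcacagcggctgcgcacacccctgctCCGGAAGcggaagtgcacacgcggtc

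The other motifs searched did not stand out in the same way. AAGGTCA, bound by oestrogen-related receptors, was in 4 windows (5.80%, against 4.25% of tested genes), and GGGCGG, bound by SP factors, in 34 (49.3%, against 62.2%). The median GC content of the members' windows was 58.7%, and that of tested genes 59.3%. A match is a run of letters and was not tested for binding.

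Total counts were 13089999 to 57277336 per library. In uninjured muscle a few fibre genes take a large part of the reads, and the TMM factors that correct for such differences averaged 0.527 there against 1.08 to 1.30 at the 4 injured times, so that the median of all 17136 tested genes lay at 0.17, 0.24, 0.32 and 0.26 (log2 fold change against uninjured muscle) at days 4, 7, 11 and 15 with TMM and at 1.47, 1.42, 1.46 and 1.30 with library size alone. Levels below are in CPM, a gene's count relative to the TMM-scaled library total, and changes are log2 fold changes ± SE from edgeR. In 1 library, labelled female day 11 replicate 3, Xist, the female X-silencing RNA, stood at 0.109 CPM (83.0 to 1062 in the other 14 female libraries) and Y-linked Ddx3y at 57.4 CPM (30.6 to 94.1 in the 15 male libraries), and the main day 11 values are given without it in a paragraph of their own.

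Transcripts of the mitochondrial ribosome were lower in injured than in uninjured muscle at every time when scaled with TMM. Summed over the 78 genes, they stood at 7274 to 10146 CPM in uninjured muscle (median 8685). After injury the sums were 2238 to 3541 CPM (day 4, median 3015), 2147 to 4586 (day 7, median 4009), 2559 to 4584 (day 11, median 3795) and 3179 to 4411 (day 15, median 4271). None of the 24 injured libraries reached the lowest uninjured library, and the day 4 libraries were the lowest as a group.

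**Figure D1:**
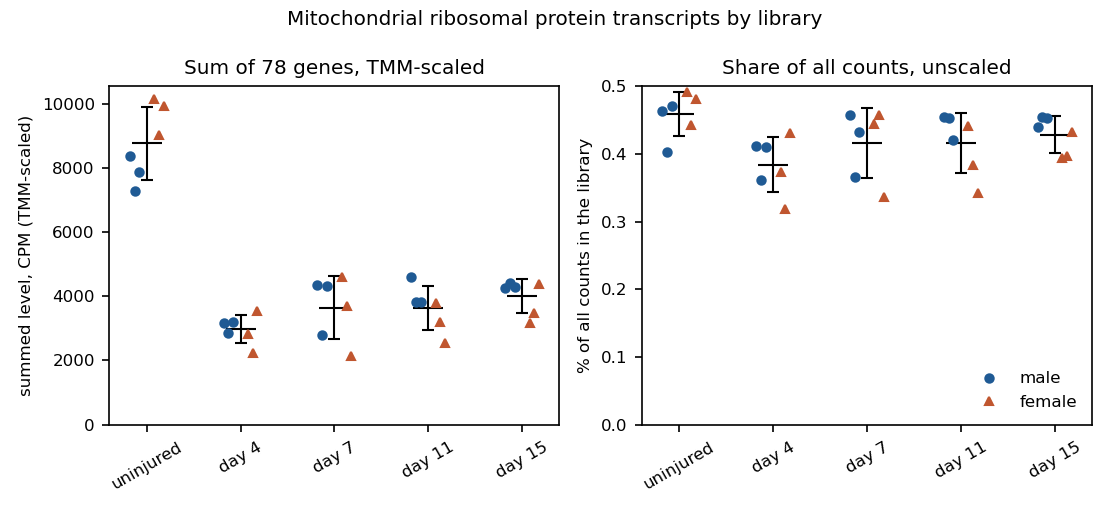
Summed mitochondrial ribosomal protein transcripts in each of the 30 libraries, as TMM-scaled CPM (left) and as a percentage of all counts in the library (right), for uninjured muscle and 4 injury times. Circles are male and triangles female libraries, and bars show mean ± SD of 6 libraries. The scaled sums of injured muscle reach at most 4586 CPM and those of uninjured muscle start at 7274, whereas the unscaled shares overlap.

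The unscaled share of all counts differed less. The members took 0.402 to 0.492% of the counts of uninjured libraries (mean 0.458 ± 0.0323%, SD, n = 6). At day 4 they took 0.318 to 0.431% (0.384 ± 0.0412%), and at days 7, 11 and 15 means of 0.416, 0.416 and 0.428%. These ranges overlap those of uninjured muscle. In bulk tissue, fewer cells of a type and less RNA per cell cannot be told apart.

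At day 4, 77 of the 78 members were called lower with TMM and none higher, against 33% of tested genes lower and 40.1% higher (edgeR's quasi-likelihood test, Benjamini-Hochberg adjusted p under 0.05 over all tested genes), whereas with library size alone 26 were called lower (8.65% of tested genes) and 18 higher (73.5%). At day 7, 76 were called lower (29.9% of tested genes) and with library size alone 22 lower (7.07%) and 20 higher (73.9%). At day 11, 77 were lower (29.7%), also without female day 11 replicate 3 (31.6%). With library size alone and all libraries, 23 were lower at day 11 (8.08%) and 19 higher (73.8%). At day 15, 75 were lower (29.3%), and with library size alone 23 lower (7.94%) and 14 higher (69.8%). With TMM edgeR called none higher at days 7, 11 or 15, against 41.6, 42.7 and 39.7% of tested genes. DESeq2, with its own size factors, called none higher at any of the 4 days, against 7125, 7309, 7494 and 7064 of 17136 tested genes. In the TMM fit an unadjusted p under 0.05 was reached by 77, 76, 77 and 75 members at the 4 days, all with values below 0. For all tested genes the share at that unadjusted threshold was not worked out. The same 6 uninjured libraries enter all 4 comparisons, so these counts are not independent of each other.

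The median member changed by -1.35, -1.15, -1.18 and -0.98 at days 4, 7, 11 and 15 with TMM, and the difference from the median of all tested genes, members minus all genes, was -1.51, -1.40, -1.503 and -1.24. With library size alone the median member was at -0.05, -0.04, -0.05 and 0.06, and the differences were -1.52, -1.46, -1.51 and -1.24; a scaling shifts all genes of a library alike, so this difference is held nearly constant by construction. The members also lay close together. The interquartile range of their changes was 0.75, 0.67, 0.75 and 0.58 on the log2 scale at the 4 days, and that of all tested genes 2.37, 2.25, 2.29 and 2.12.

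**Figure D2:**
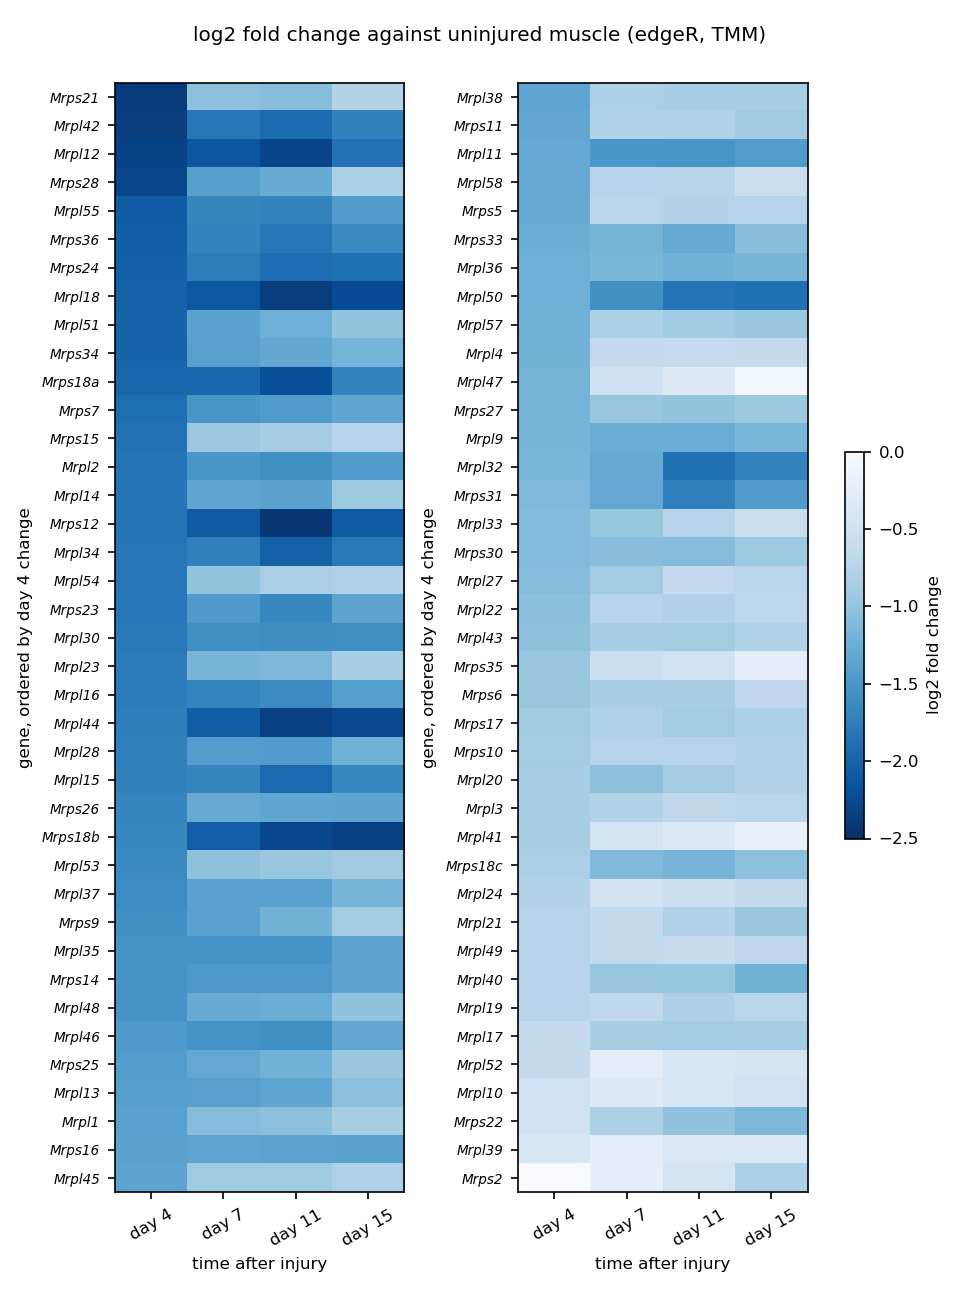
Log2 fold change of each of the 78 members against uninjured muscle at 4 injury times (TMM-scaled edgeR fit), ordered by the day 4 value from the most negative at top left to Mrps2 at bottom right. All values are below 0 under this scaling, while with library size alone the median member lies between -0.05 and 0.06; rows such as Mrps21 become paler towards day 15 and rows such as Mrps18b darker.

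Separation between single libraries was as wide. For 75 members all 6 libraries of day 4 lay below all 6 uninjured ones, which held for 25.9% of tested genes. The number was 63 at day 7 (19.3%), 68 at day 11 (20.5%) and 69 at day 15 (21.1%). The mean log2 CPM was highest in uninjured muscle for 77 members (98.7%, against 33.0% of tested genes), the exception being Mrps2, and lowest at day 4 for 50 (64.1%, against 25.6%). 73 members were called lower at all 4 days, against 22% of tested genes.

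Without the library labelled female day 11 replicate 3, the members' sums at day 11 were 3209 to 4584 CPM (median 3807) and their mean share of all counts was 0.431%. The median member was at -1.14 and the median tested gene at 0.21. For 68 members the other 5 day 11 libraries lay below all 6 uninjured ones (21.9% of tested genes), and 73 were called lower at all 4 days (23.2%). Small over large subunit counts then ranged over 0.408 to 0.419, members over respiratory chain subunits over 0.101 to 0.158, and members over cytosolic ribosomal proteins over 0.0718 to 0.167. Of the genes described next, Mrps21 held 120 to 176 CPM and Mrps2 24.5 to 26.9, and the day 11 changes were -2.44 for Mrps12, still the largest fall, and -2.33 for Mrpl12.

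The medians of the subunits lay close to each other, and their difference was not tested. The median small subunit gene changed by -1.40 at day 4 and -1.001 at day 15, and the median large subunit gene by -1.31 and -0.97. The 46 genes classed as having a bacterial counterpart and the 31 classed as mitochondria-specific had day 4 medians of -1.35 and -1.35. The 31 include Mrps18a and Mrps18b, which are classed by their place on the ribosome although they are related to bacterial S18. Within a library the summed counts of small over large subunit genes ranged over 0.394 to 0.421 before injury and over 0.379 to 0.396, 0.384 to 0.463, 0.408 to 0.454 and 0.415 to 0.437 at days 4, 7, 11 and 15. The day 4 range lay lowest, overlapping the lower end of uninjured muscle.

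Of the small subunit, Mrps21 and Mrps28 had the largest falls at day 4. Mrps21 encodes the homologue of bacterial S21, and its level was 217 to 381 CPM in uninjured muscle (median 289). On days 4, 7, 11 and 15 it was 25.3 to 82.5 (median 50.6), 59.7 to 267 (126), 92.0 to 176 (133) and 138 to 215 (168). The 6 day 4 libraries lay far below the uninjured ones, those of day 7 overlapped them, and those of day 15 all lay below the lowest of them, the nearest by little. Mrps21 fell by 2.39 ± 0.30 at day 4 (edgeR adjusted p = 1.38e-07) and by 0.76 ± 0.29 at day 15 (adjusted p = 0.0226). The day 15 call was lost without male uninjured replicate 1 (adjusted p = 0.0581) or female uninjured replicate 1 (0.0509), and with upper quartile scaling (0.0918). With library size alone the day 15 value turned and lay above uninjured muscle. Mrps28 encodes the protein at the place of bacterial S1 and ranged over 131 to 156 CPM in uninjured muscle, with 15.7 to 40.4 on day 4 and 66.1 to 107 on day 15. Its groups at these 3 times did not overlap. It fell by 2.29 ± 0.26 at day 4 and its day 15 change was -0.83 ± 0.25 (adjusted p = 0.0055). Its day 15 value also lay above uninjured muscle with library size alone.

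Mrps12, which lines the decoding centre where codon meets anticodon, was lowest later. It ranged over 55.9 to 87.6 CPM in uninjured muscle (median 75.2). On days 4, 7, 11 and 15 it ranged over 13.95 to 26.1 (median 19.9), 7.94 to 26.9 (14.4), 7.81 to 19.2 (13.6) and 11.8 to 31.6 (14.3). No injured library reached the uninjured range. Its changes were -1.84 ± 0.28, -2.11 ± 0.29, -2.44 ± 0.29 and -2.08 ± 0.29 at the 4 days, and that of day 11 (edgeR adjusted p = 6.35e-08) was the largest fall of any member at that time.

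The 3 paralogs of bacterial S18 differed in size of change. Mrps18a, whose protein occupies a large subunit site, had 111 to 161 CPM in uninjured and 24.9 to 40.1 in day 4 libraries, a change of -1.97 ± 0.27. Mrps18b had 44.3 to 70.0 CPM in uninjured libraries, 15.7 to 22.1 on day 4 and 9.0 to 13.4 on day 15. Its changes were -1.65 ± 0.19 and -2.34 ± 0.19, the latter the largest fall of any member at day 15. Mrps18c, the closest to the bacterial protein in its place on the ribosome, had 50.5 to 71.6 CPM in uninjured and 28.8 to 39.7 in day 4 libraries, a change of -0.84 ± 0.20 with TMM but of 0.46, called higher, with library size alone. For all 3 the injured day 4 libraries lay below the uninjured ones, and the difference between paralogs was not tested.

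Mrps2 was the member not called at day 4. It encodes the homologue of bacterial S2, a late-binding protein of the small subunit, and stood at 26.5 to 38.9 CPM in uninjured muscle (median 35.3) and 32.8 to 35.1 at day 4 (34.1), a difference of -0.00 ± 0.13 (edgeR adjusted p = 0.981). Its day 4 libraries all lay within the uninjured range. Later libraries held 21.2 to 37.9 CPM (day 7), 20.8 to 26.9 (day 11) and 15.3 to 24.0 (day 15). By day 15 no library overlapped uninjured muscle, and the change was -0.82 ± 0.13 (edgeR adjusted p = 6.99e-06), while with library size alone it was 1.30 above uninjured muscle at day 4 and 0.21 above at day 15. As a share of the members' summed counts, which needs no scaling, Mrps2 took 0.316 to 0.499% before injury, 0.974 to 1.57% on day 4 and 0.389 to 0.560% on day 15. Its day 4 range stood clear of both others. Mrps2 was chosen for its values at these days, and its share rises where the other members fall, so this is a description.

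Of the large subunit, Mrpl12 forms the flexible stalk that recruits translation factors. It ranged over 213 to 379 CPM in uninjured muscle (median 335). On days 4, 7, 11 and 15 it ranged over 50.4 to 78.9 (median 65.6), 28.1 to 118 (63.0), 44.8 to 92.4 (61.3) and 51.2 to 152 (82.5). No injured library reached the uninjured range. Its changes were -2.32 ± 0.28, -2.14 ± 0.28, -2.30 ± 0.28 and -1.86 ± 0.28. Mrpl10, which anchors the stalk, had 57.4 to 77.7 CPM in uninjured and 43.2 to 56.3 in day 4 libraries, a change of -0.50 ± 0.10 with TMM but of 0.80, called higher, with library size alone. Mrpl11, at the stalk base, changed by -1.31 ± 0.21 at day 4 and -1.43 ± 0.22 at day 15. Of the members' summed counts Mrpl12 took a median 3.61% in uninjured muscle and 2.16% at day 4, with no overlap of the ranges, and Mrpl10 took 0.766 and 1.63%, also with no overlap. Mrpl12 was among the largest falls at day 4, so its lower share is a description.

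Mrpl42, a mitochondria-specific protein of the large subunit, had 465 to 782 CPM in uninjured libraries, 59.9 to 173 on day 4 and 120 to 258 on day 15. Its changes were -2.37 ± 0.29 and -1.70 ± 0.28, with no overlap with uninjured muscle at either time. Mrpl18, of the central protuberance, had 197 to 278, 46.1 to 66.2 and 36.4 to 67.1 CPM at the same 3 times, with changes of -2.02 ± 0.28 and -2.23 ± 0.28. Mrpl44, an RNase III-like protein of the large subunit, had 50.2 to 86.0, 17.1 to 22.3 and 9.58 to 23.5 CPM, with changes of -1.75 ± 0.26 and -2.25 ± 0.26. The 3 genes kept their groups apart from uninjured muscle at both times. The Mrpl18 and Mrpl44 spans overlap Tcp1 (-0.42 at day 4, called lower) and Wdfy1 (0.62 at day 4, called higher), and since no source used here says whether counting used strand, reads from the overlaps cannot be told apart.

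Other members with a known role of their own were lower as well with TMM. Mrpl58, a peptidyl-tRNA hydrolase that releases stalled chains, had 71.5 to 98.1 CPM in uninjured libraries, 26.0 to 43.7 on day 4 and 46.5 to 70.4 on day 15, with changes of -1.29 ± 0.18 and -0.56 ± 0.18. Mrpl45, at the exit tunnel near the inner membrane, changed by -1.35 ± 0.17 and -0.80 ± 0.16 at these days. Mrps30, a large subunit protein, changed by -1.10 ± 0.19 and -0.94 ± 0.19, and Mrps27, a small subunit protein with pentatricopeptide repeats, by -1.18 ± 0.13 and -0.94 ± 0.13. Mrps36, now known as a component of the alpha-ketoglutarate dehydrogenase complex, changed by -2.06 ± 0.29 and -1.63 ± 0.29. With library size alone the day 4 values were 0.01 for Mrpl58, -0.05 for Mrpl45, 0.19 for Mrps30, 0.12 for Mrps27 and -0.76 for Mrps36, of which only that of Mrps36 was called.

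Of 24 members named here by rule, 6 were called lower at all 4 days with library size alone as well: Mrpl12, Mrpl18, Mrpl42, Mrps12, Mrps18a and Mrps36. Mrpl10 and Mrpl49 were called higher at all 4 days under that scaling. Over all 78 members, 15 were called lower at all 4 days with library size alone (4.02% of tested genes) and 8 higher (60.7%).

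Besides Mrps2, few members failed to differ from uninjured muscle under TMM. Mrps2 was not called at day 7 either (-0.23 ± 0.13, adjusted p = 0.116). Mrpl52 was not called at day 7 (-0.26 ± 0.17, adjusted p = 0.179). Mrpl47, the homologue of bacterial L29 beside the exit tunnel, was not called at day 11 (-0.33 ± 0.17, adjusted p = 0.0890) or day 15 (-0.06 ± 0.17, adjusted p = 0.786). Mrpl41 (-0.20 ± 0.15) and Mrps35 (-0.26 ± 0.16) were not called at day 15. Mrpl47 was called lower at day 11 without female day 11 replicate 3 (-0.45, adjusted p = 0.0274), female day 4 replicate 2 (0.0464) or female day 7 replicate 3 (0.0323), and with only the groups compared in the fit (0.0245). With library size alone Mrpl47 instead lay above uninjured muscle at days 11 and 15.

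Between injury times the members split. From day 4 to day 15, 29 rose (25.1% of tested genes) and 6 fell (27%), with a median of 0.26 over the members and -0.02 over all tested genes; with library size alone 14 rose (16.2%) and 11 fell (36.4%). Leaving out single libraries gave 20 to 33 that rose and 4 to 7 that fell, with the shares of all tested genes not given here. The 3 largest rises were those of Mrps21 (1.63 ± 0.30), Mrps28 (1.46 ± 0.26) and Mrpl47 (1.13 ± 0.18), the last with 11.6 to 19.2 CPM on day 4, 26.2 to 48.1 on day 15 and 30.8 to 40.3 in uninjured muscle. For these 3 genes no day 4 library reached the day 15 range. The 6 that fell were Mrps2 (-0.82 ± 0.13), Mrps18b (-0.69 ± 0.18), Mrpl50 (-0.65 ± 0.21), Mrps22 (-0.65 ± 0.17), Mrpl32 (-0.54 ± 0.22) and Mrpl40 (-0.46 ± 0.17). Mrpl50, a mitochondria-specific protein, had 47.1 to 88.6 CPM in uninjured libraries, 28.8 to 33.4 on day 4 and 16.3 to 24.0 on day 15, with no overlap between the 3 times.

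**Figure D3:**
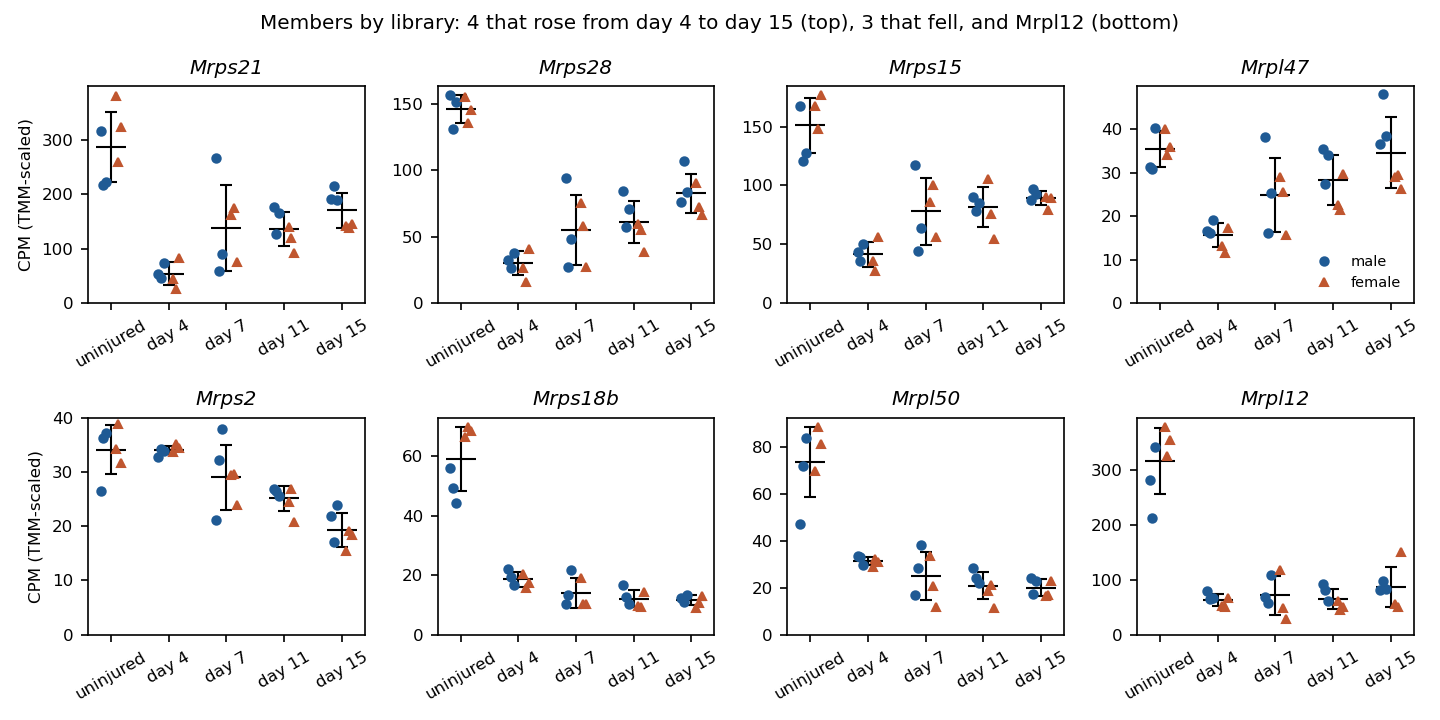
TMM-scaled CPM of 8 members in each of the 30 libraries by time, with circles for male and triangles for female libraries and bars for mean ± SD of 6. Mrps21, Mrps28, Mrps15 and Mrpl47 (top) are lowest at day 4 and higher at day 15, while Mrps2, Mrps18b and Mrpl50 (bottom) are lower at day 15 than at day 4 and Mrpl12 stays far below its uninjured range; with library size alone Mrps2, Mrpl47, Mrps21, Mrps28 and Mrps15 lie above uninjured muscle at day 15.

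Shares of the members' summed counts, which no scaling changes, are given for 4 of these genes as a description, since the genes were chosen for their change between these days. Mrps21 took 2.83 to 3.79% of that sum before injury, 1.13 to 2.33% on day 4 and 3.35 to 4.88% on day 15. Mrpl47 took 0.363 to 0.511%, 0.464 to 0.5987% and 0.5993 to 1.09% at these times. Mrps18b took 0.562 to 0.777%, 0.491 to 0.724% and 0.253 to 0.314%, and Mrpl50 0.563 to 1.06%, 0.873 to 1.44% and 0.393 to 0.563%. For each of the 4 genes the day 4 and day 15 ranges did not overlap, though those of Mrpl47 nearly met.

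Between days 4 and 7, edgeR called 19 members higher (18.5% of tested genes) and none lower (16.7%). An unadjusted p under 0.05 was reached by 24, and the share of all tested genes at that threshold was not worked out. DESeq2 called 17 higher and none lower, against 3407 higher and 3318 lower of 17136 tested genes. Mrps21 (1.35 ± 0.29) and Mrps15 (0.91 ± 0.21), a primary rRNA-binding protein of the small subunit, rose most. The number called higher varied with the libraries used. It was 6 without female day 4 replicate 2, 9 without male day 7 replicate 1 or male day 4 replicate 2, 10 without male or female day 4 replicate 1, 11 without female day 7 replicate 2 and 12 without male day 11 replicate 3. Shares of all tested genes in these leave-out fits are not given here. With library size alone 10 rose (11.8% of tested genes) and 5 fell (20.1%). From day 7 to day 11 edgeR called none in either direction (0.0408% of tested genes higher and 0.0175% lower), and 1 reached an unadjusted p under 0.05. Without female day 11 replicate 3 edgeR called none either (0.143% higher and 0.0344% lower). DESeq2 also called none (82 of 17136 tested genes higher and 46 lower). From day 11 to day 15 none was called by edgeR (2% higher and 2.25% lower), and 1 reached an unadjusted p under 0.05. DESeq2 called 1 lower (741 of 17136 tested genes), and edgeR called 1 lower without female day 11 replicate 3.

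In uninjured muscle edgeR called no member higher or lower in females than in males (0.181 and 0.461% of tested genes). An unadjusted p under 0.05 was reached by 7, and the share of all tested genes at that threshold was not worked out. DESeq2 called 1 higher (162 of 17136 tested genes). Values were above 0 for 74 of 78, with a median of 0.28 against -0.03 over all tested genes, and 0.05 with library size alone. Under that scaling no member reached an unadjusted p under 0.05 in edgeR. Mrps26, of the small subunit, had the smallest p, with 59.7 to 76.4 CPM in 3 male and 85.9 to 102 in 3 female libraries (0.51 ± 0.16, adjusted p = 0.178), followed by Mrpl49 (0.44 ± 0.18, adjusted p = 0.303) and Mrpl38 (0.52 ± 0.21, adjusted p = 0.304). The libraries of the sexes did not overlap for these 3 genes, and with these 3 chosen for their p-values this is a description.

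For a sex difference in the response to injury over the 4 days jointly, edgeR called no member (0.035% of tested genes). DESeq2 called none either (101 of 17136 tested genes). In edgeR 2 members were at an unadjusted p under 0.05. How many of all tested genes reached the unadjusted threshold in the joint tests was not worked out. Mrps26, with the smallest p, changed at day 4 by -1.34 ± 0.17 in males and -2.01 ± 0.17 in females (adjusted p = 0.714 for the joint difference). Mrps27 changed by -0.86 ± 0.18 and -1.50 ± 0.18 (adjusted p = 0.799) and Mrpl49 by -0.47 ± 0.18 and -1.04 ± 0.18 (adjusted p = 0.826). Without female day 11 replicate 3 edgeR called no member either (0.0287% of tested genes), and 4 reached an unadjusted p under 0.05. With library size alone no member reached an unadjusted p under 0.05 in edgeR's joint test.

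Taken day by day, edgeR called no member for a sex difference in the response at days 4, 7, 11 or 15 (0.0467, 0.123, 0.0584 and 0.21% of tested genes), and 5, 4, 16 and 10 members reached an unadjusted p under 0.05. The percentages are for adjusted calls, and the share of all tested genes at the unadjusted threshold was not worked out. All of these day-by-day values are with TMM. The difference, female minus male log2 fold change, was below 0 for 75, 76, 78 and 76 members, with medians of -0.35, -0.44, -0.60 and -0.47, and the medians of all tested genes were 0.06, 0.06, 0.09 and 0.08. Without female day 11 replicate 3 none was called at any day either (0.0402, 0.161, 0.0631 and 0.172% of tested genes), and 7, 6, 8 and 19 reached an unadjusted p under 0.05. The day 11 median was then -0.51, with 75 members below 0. The same uninjured libraries, in which most members had higher values in females, enter all 4 of these differences.

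The partners of these proteins were taken from lists drawn up beside the members. All 5 mitochondrial ribosomal proteins with other symbols were called lower at days 4, 7 and 11 and 4 at day 15. Chchd1 (-2.38 ± 0.32) and Gadd45gip1 (-1.60 ± 0.21) changed most at day 4, while Dap3, a small subunit GTPase-like protein, was at -1.57 ± 0.11, Aurkaip1 at -1.42 ± 0.17 and Ptcd3 at -0.94 ± 0.22. Of 27 genes for ribosome assembly and rRNA modification, 24 were called lower and none higher at day 4 (median -0.98), led by Malsu1 (-2.32 ± 0.22) and Rpusd3 (-1.80 ± 0.20). Of 17 translation factors, 15 were lower and none higher (median -1.19), among them Mtres1 (-2.24 ± 0.25) and Taco1 (-2.12 ± 0.44). Of 20 mitochondrial aminoacyl-tRNA synthetases and amidotransferase subunits 19 were lower (median -0.83) and 1, Nars2, higher (0.49 ± 0.15), and of 14 genes for mitochondrial transcription and RNA processing 11 were lower (median -0.95) and 1, Mterf1a, higher (0.73 ± 0.22). These values are with TMM, and with library size alone all genes move up by the shift given above.

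Ratios of summed counts within a library, which no scaling changes, set the members beside 2 larger groups. Relative to 83 nuclear-encoded respiratory chain and ATP synthase subunits, whose assembly needs the products of the mitochondrial ribosome, the members stood at 0.0912 to 0.110 in uninjured muscle and 0.155 to 0.234 at day 4. Later ratios were 0.116 to 0.222 (day 7), 0.101 to 0.162 (day 11) and 0.103 to 0.118 (day 15). The ratio was thus above the uninjured range in all 12 libraries of days 4 and 7, and overlapped it at days 11 and 15. Of the 83, 80 were called lower and 3 higher at day 4 (median -2.32), and 64 lower and 4 higher at day 15 (median -1.03, beside -0.98 for the members).

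Relative to 87 cytosolic ribosomal proteins the order was the opposite. The ratio was 0.180 to 0.234 in uninjured muscle. After injury it was 0.0616 to 0.0897 (day 4), 0.0687 to 0.155 (day 7), 0.0718 to 0.167 (day 11) and 0.0826 to 0.159 (day 15). No injured library reached the uninjured range. Of the 86 cytosolic genes tested, 16 were called lower and 5 higher at day 4, with a median of -0.12 with TMM.

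**Figure D4:**
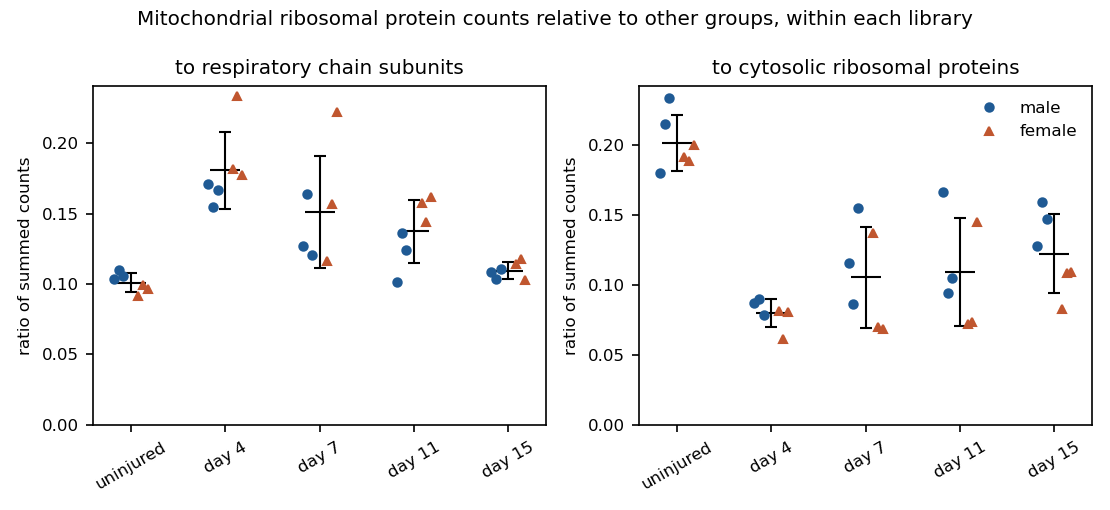
Summed counts of the 78 members divided by those of respiratory chain subunits (left) and of cytosolic ribosomal proteins (right) in each of the 30 libraries, with circles for male and triangles for female libraries and bars for mean ± SD of 6. Against respiratory chain subunits the day 4 libraries (0.155 to 0.234) lie above uninjured muscle (0.0912 to 0.110), and against cytosolic ribosomal proteins they lie below it (0.0616 to 0.0897 against 0.180 to 0.234).

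Cell type markers moved in both directions at day 4 with TMM. Those of mature fast fibres fell, while those of new fibres, macrophages and fibroblasts mostly rose. All 15 markers of mature fast fibres were called lower at day 4, and none was at 0, and their sums were 417093 to 599786 CPM before injury, 12024 to 76352 on day 4 and 84301 to 170614 on day 15. Of 10 markers of new fibres 9 were higher at day 4 (611 to 3569 CPM in uninjured muscle, where Mymx was at 0, and 5355 to 7416 at day 4), and of 14 macrophage markers all were higher (51.3 to 75.9 and 3276 to 4758 CPM). Of 10 fibroblast markers 9 were higher (363 to 905 and 8561 to 14483 CPM), of 16 cell cycle genes 15 were higher (65.9 to 81.4 and 497 to 1029 CPM), and of 10 endothelial markers 6 were lower (700.1 to 1115 and 516 to 743 CPM). Neutrophil markers were higher in 5 of 6 tested (Ly6g and Elane at 0 in uninjured muscle) and lymphocyte markers in 4 of 8, at sums of at most 68.5 and 15.3 CPM at day 4. At each injured time the library with the lowest member sum was also the one with the lowest fast fibre sum: female day 4 replicate 2, female day 7 replicate 3, female day 11 replicate 3 and female day 15 replicate 1. Both sums are divided by the same scaled library total, and these libraries had the largest TMM factor of their time (1.42, 1.57, 1.34 and 1.24). The members' unscaled share of all counts was lowest in the same libraries. The part of cell makeup in the members' change was not tested.

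Many members share a start region with a neighbour on the opposite strand. By RefSeq gene order, 26 of the 69 members with a window (37.7%) start within 1000 bases of such a neighbour, against 17.8% of tested genes. Mrpl46 and Mrps11 are such a pair, and changed by -1.47 and -1.32 at day 4. The other 24 neighbours were not members, and all were tested. At day 4, 12 of them were called lower with TMM, where 43.1% of 1860 head-to-head genes were lower. The number called higher was 6, where 40.1% of all tested genes were higher. The median was -0.37 for these neighbours and -0.21 for the head-to-head genes. The neighbours described next were picked after their values were seen.

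Some neighbours encode other mitochondrial proteins and were lower beside the member with TMM. Ndufb5, a complex I subunit, changed by -2.51 next to Mrpl47 (-1.19), and Twnk, the mitochondrial DNA helicase, by -1.40 next to Mrpl43 (-1.03). The listed spans of Twnk and Mrpl43 overlap (mean counts of 727.8 and 935.8), so reads there cannot be told apart without strand. Sars2, the mitochondrial seryl-tRNA synthetase, changed by -1.50 next to Mrps12 (-1.84), and Ptcd2 by -1.21 next to Mrps27 (-1.18). By day 15 Ndufb5 was still at -1.55 and Mrpl47 at -0.06.

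Other neighbours went the opposite way from the same start region with TMM. Ska3, a spindle protein, stood at 0.0879 to 0.333 CPM in uninjured muscle and 6.80 to 14.4 at day 4, a rise of 5.19 ± 0.42, next to Mrpl57 (-1.22 ± 0.17). Eme1, an endonuclease subunit, stood at 0 to 0.177 CPM in uninjured muscle, where it had 8 counts over 6 libraries, and 2.23 to 4.26 at day 4, next to Mrpl27 (-1.09 ± 0.18). Of all counts between 1 and 10, 73.4% are even, so a single count may not stand for a single fragment. Ncapd2, a condensin subunit, rose by 0.94 next to Mrpl51 (-2.0), and Ppp1r10 rose by 0.70 at day 4 and 1.32 at day 15 next to Mrps18b (-1.65 and -2.34). Under library size alone the values of neighbours and members both shift upwards, which leaves the differences between them but not always the opposite signs. The median of all members then lay at -0.05 at day 4. The listed spans of Ska3 and Mrpl57, and of Eme1 and Mrpl27, overlap, so reads there cannot be told apart without strand. Over all 78 members, 22 overlap another listed gene, among them Mrps2, Mrps18a, Mrps18b, Mrps27, Mrpl49 and Mrps23. For the first 4 of these the other gene had mean counts of 14.8, 77.8, 6.23 and 28.2, against 1180, 1889, 805 and 994 for the member. Mrpl49 (1304) overlaps Syvn1 (2430, 0.44 at day 4), and Mrps23 (2863) overlaps Cuedc1 (8703, -2.91 at day 4). RefSeq also lists pseudogenes of Mrpl23, Mrpl27, Mrpl48 and Mrps36, so counts of these 4 are uncertain where reads fit both copies.

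**Figure D5:**
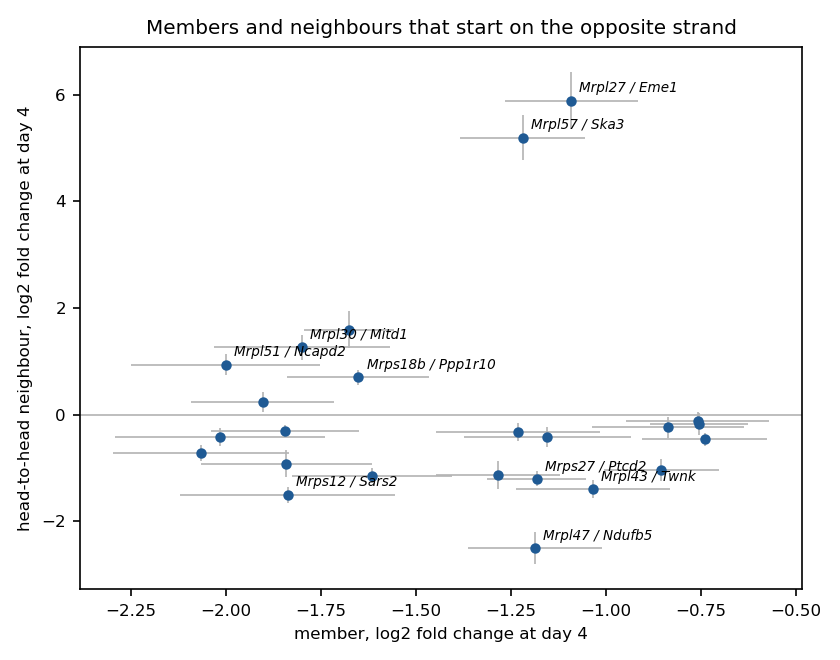
Day 4 log2 fold change of each member with a head-to-head neighbour (x axis) against that of the neighbour (y axis) for the 24 neighbours that are not members, with bars for ± SE (TMM-scaled edgeR fit; library size alone moves both axes up). Members all lie below 0 here, while neighbours run from Ndufb5 at -2.51 to Ska3 at 5.19 and Eme1, whose value rests on 8 counts in uninjured muscle.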

How the data were processed

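RNA from 30 tibialis anterior libraries was sequenced, and the deposited files hold raw counts per gene symbol. The submitters' processing notes name STAR, edgeR and the mm39 build. Tool versions, counting program, annotation and use of strand: not given in the sources used here. Counts were filtered with filterByExpr (17136 genes kept, 9128 removed), scaled with TMM and fitted in edgeR 4.0.16 (R 4.3.3; glmQLFit, 10 group means, sexes weighted equally; glmQLFTest). P-values were adjusted by Benjamini-Hochberg over all tested genes, with calls made under 0.05. SE is the absolute log2 fold change over the square root of F. In simulated counts day 4 equalled uninjured muscle except for 200 changed genes, of which edgeR recovered 135, with 12 false calls. The simulation held no difference in composition between these 2 times of the kind TMM corrects. It therefore cannot say how the choice of scaling affects the members.

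The members and lists were chosen with earlier results of these data known. Members with full values were the 4 largest falls per day, the 3 largest changes per direction from day 4 to 15 and 2 per direction between successive days, the 3 smallest p for each sex contrast, and 13 fixed genes. Other lists gave 2 genes per direction, at a mean of at least 1 CPM. Further members with no call or a fall from day 4 to 15, and the printed promoters and neighbours, were picked after their values were seen. No 2 replicates held identical counts, and their spread exceeded counting error. Alternatives were RLE, upper quartile and library size scaling, 2 other filters, DESeq2 1.42.0, a replicate block, only the groups compared, and leaving out libraries.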

Additional observations from a re-analysis of the deposited data

Results flagged for a closer look

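Over 140 sets of 6 libraries of 1 time, 4 had a library far from the rest, measured by its gap to the nearest library as a share of the whole range (Dixon's 95% criterion); chance alone marks about 1 in 20 sets. Mrps12 at day 15 was 31.6 CPM in female replicate 3, with the next library at 18.4 and the lowest at 11.8. Mrps36 at day 4 was 9.94 CPM in female replicate 2, with the next at 20.01. The ratio of members to respiratory chain subunits at day 4 was 0.234 in the same library, with the next at 0.182. The ratio of small to large subunit counts at day 11 was 0.454 in the library labelled female replicate 3, whose sex-linked transcripts go against its label, with the next at 0.419.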

How the results depend on the processing

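Of the scalings, library size alone moved the members most, and the median of all genes up by over 1 on the log2 scale; the members' median turned positive with it at day 15. With it, 18 members were higher and 26 lower at day 4, 20 and 22 at day 7, 19 and 23 at day 11 and 14 and 23 at day 15, with medians of -0.052, -0.035, -0.049 and 0.058. From day 4 to 7, 10 rose and 5 fell, and from day 4 to 15, 14 and 11. Among the 24 members named by rule, the log2 fold changes that turned positive with it were, at day 4, Mrpl47 0.11, Mrps2 1.30, Mrpl50 0.070, Mrpl49 0.55, Mrps27 0.12, Mrps18c 0.46, Mrpl10 0.80, Mrpl58 0.012 and Mrps30 0.19. At day 7 they were Mrps21 0.067, Mrpl47 0.61, Mrps2 0.93, Mrps15 0.18, Mrpl49 0.50, Mrpl38 0.31, Mrps27 0.17, Mrpl10 0.83, Mrpl58 0.40, Mrps30 0.032 and Mrpl45 0.19. At day 11 they were Mrps21 0.058, Mrpl47 0.81, Mrps2 0.70, Mrps15 0.25, Mrpl49 0.54, Mrpl38 0.27, Mrps27 0.14, Mrpl10 0.73, Mrpl58 0.40, Mrps30 0.038 and Mrpl45 0.22. At day 15 they were Mrps21 0.28, Mrps28 0.22, Mrpl47 0.98, Mrps2 0.21, Mrps15 0.28, Mrpl49 0.36, Mrpl38 0.19, Mrps27 0.091, Mrpl10 0.54, Mrpl58 0.47, Mrps30 0.090 and Mrpl45 0.23.

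Mrps2 at day 4 (-0.00 in the reported fit) was 0.034 with RLE, 0.17 with upper quartile scaling, 0.021 with no low-count filter, 0.034 with DESeq2, 0.00020 with the replicate block, 0.069 with only the groups compared, and -0.071 to 0.042 when single libraries were left out. Mrpl47 at day 15 was -0.12 to 0.012 when single libraries were left out and 0.15 with upper quartile scaling, where the day 15 median was -0.77. DESeq2 called 1 member lower from day 11 to 15 (741 of 17136 tested genes) and 1 higher in females (162). With only the groups compared, 8 rose from day 4 to 7 (2543 of 16852 tested genes). An alternative chosen after seeing the data left out female day 4 replicate 2 and female day 11 replicate 3. With it 9 rose and 1 fell from day 4 to 7 and 1 fell from day 11 to 15 (shares of tested genes not given here). The causes of these moves were not tested.

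Leaving out single libraries gave medians of -1.43 to -1.28, -1.31 to -1.07, -1.24 to -1.14 and -1.08 to -0.93 at days 4, 7, 11 and 15, with 76 to 77, 75 to 77, 75 to 78 and 73 to 75 members lower. It gave 6 to 24 that rose and 0 to 5 that fell from day 4 to 7, 20 to 33 and 4 to 7 from day 4 to 15, and 0 to 1 that fell from day 11 to 15. Shares of all tested genes beside these ranges are not given here. Same-numbered replicates did not deviate together (mean r 0.0125 over 135 pairs, -0.00633 over 270 others, and 12 of 30 libraries closest to their own number), so the numbers were not taken as pairs. With the replicate block 77, 75, 77 and 75 members were lower (5635, 5165, 5092 and 4990 of 17136 tested genes). From day 4 to 7, 19 rose with it (3089 of tested genes).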
